A study of Mus musculus with 80 samples.

Results

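Loss of the TET enzymes was examined at 48 h of 2i by comparing 2 reduced representation bisulfite sequencing (RRBS) libraries of Tet1/2/3 triple knockout embryonic stem cells (TET TKO) with 2 libraries of the corresponding wild-type line (TET WT). These are 4 of the 80 samples of the series. Both lines are mouse embryonic stem cells (ESCs) of mixed C57/129/FVB background that were grown in serum and then switched for 48 h to 2i, in which serum is replaced by a pair of small molecules that block MEK and GSK3. The TKO line carries the constitutive deletion TET1/2/3-/-, the control line is labelled wild-type, and the labels of neither group list vitamin C. The genome was cut into 500-bp tiles, and 46259 autosomal tiles with at least 20 calls and at least 3 positions in each of the 4 libraries were compared, of 587812 tiles with any call. The question was whether TET-dependent oxidation of methylated cytosine is needed for demethylation at particular places. One line stands for each genotype, so a difference of genotype and a difference between the lines cannot be told apart.

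TET1, TET2 and TET3 are dioxygenases that oxidise 5-methylcytosine (5mC) to 5-hydroxymethylcytosine (5hmC) and further to 5-formylcytosine and 5-carboxylcytosine. The oxidised bases are lost either at replication, because the maintenance methyltransferase DNMT1 with its partner UHRF1 copies them poorly, or by excision through thymine DNA glycosylase and repair. In mouse ESCs TET1 and TET2 are the abundant members, and the enzymes are known at CpG-rich promoters and enhancers. Bisulfite sequencing reads 5mC and 5hmC alike, so every methylation level given here is their sum.

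The sequences of 7 promoters described below are given here so that the measured cytosines can be placed in them. They are those of 2 genes that were free of methylation calls in WT and of 5 germ line genes. Each run is the 250 bases before the RefSeq start of the gene, 5′ to 3′ along the gene, in build GRCm38.p6. Capitals mark the CpG dinucleotides that had at least 5 calls in each line at 48 h. Zfp560 lies at chr9:20385159-20385408 on the minus strand and Zfp263 at chr16:3743849-3744098 on the plus strand, and both encode zinc finger proteins. Hormad1 (chr3:95559429-95559678, plus strand) encodes a protein of the meiotic chromosome axis. Mael (chr1:166238745-166238994, minus strand) encodes a factor of transposon silencing in germ cells. Sycp1 (chr3:102936101-102936350, minus strand) encodes the transverse filament of the synaptonemal complex. Slc25a31 (chr3:40708621-40708870, plus strand) encodes the ADP/ATP carrier of the testis. Ddx4 (chr13:112652311-112652560, minus strand), the germ cell RNA helicase, is shown beside them as a germ line promoter that was not called.
Zfp560: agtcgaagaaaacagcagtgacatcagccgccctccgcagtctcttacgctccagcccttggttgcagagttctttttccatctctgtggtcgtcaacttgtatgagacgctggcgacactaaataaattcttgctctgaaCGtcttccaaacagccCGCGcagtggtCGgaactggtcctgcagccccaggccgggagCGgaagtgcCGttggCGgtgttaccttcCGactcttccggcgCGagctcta
Zfp263: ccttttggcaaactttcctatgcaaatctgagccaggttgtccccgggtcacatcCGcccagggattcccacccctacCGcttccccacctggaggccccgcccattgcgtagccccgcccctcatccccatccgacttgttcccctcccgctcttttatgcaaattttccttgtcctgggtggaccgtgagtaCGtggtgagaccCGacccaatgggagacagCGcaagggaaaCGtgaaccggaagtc
Hormad1: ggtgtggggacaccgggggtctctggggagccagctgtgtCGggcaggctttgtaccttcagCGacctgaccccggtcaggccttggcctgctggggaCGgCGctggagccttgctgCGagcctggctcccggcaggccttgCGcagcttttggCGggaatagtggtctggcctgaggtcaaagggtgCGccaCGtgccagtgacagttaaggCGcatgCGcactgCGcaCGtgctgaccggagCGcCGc
Mael: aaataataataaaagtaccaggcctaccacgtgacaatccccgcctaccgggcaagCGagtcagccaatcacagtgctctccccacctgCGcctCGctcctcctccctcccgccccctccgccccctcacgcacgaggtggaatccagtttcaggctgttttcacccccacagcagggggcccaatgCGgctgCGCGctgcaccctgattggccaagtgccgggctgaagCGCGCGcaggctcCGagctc
Sycp1: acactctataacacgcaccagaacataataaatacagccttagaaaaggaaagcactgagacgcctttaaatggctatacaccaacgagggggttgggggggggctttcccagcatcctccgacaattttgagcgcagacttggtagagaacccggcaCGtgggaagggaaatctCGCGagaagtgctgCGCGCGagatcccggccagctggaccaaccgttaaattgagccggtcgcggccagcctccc
Slc25a31: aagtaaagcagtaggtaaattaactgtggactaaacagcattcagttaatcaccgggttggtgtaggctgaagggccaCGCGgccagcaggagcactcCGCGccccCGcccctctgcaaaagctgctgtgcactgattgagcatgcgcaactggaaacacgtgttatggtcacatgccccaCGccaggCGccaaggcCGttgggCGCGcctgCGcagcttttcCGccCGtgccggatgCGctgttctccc
Ddx4: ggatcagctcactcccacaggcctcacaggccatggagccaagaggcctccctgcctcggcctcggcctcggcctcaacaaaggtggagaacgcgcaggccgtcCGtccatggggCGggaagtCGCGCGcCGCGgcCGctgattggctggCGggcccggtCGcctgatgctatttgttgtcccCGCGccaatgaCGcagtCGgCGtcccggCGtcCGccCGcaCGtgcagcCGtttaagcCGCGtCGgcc

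The TKO libraries were shallower than the WT libraries, with 6602058 and 8110294 methylation calls against 10718580 and 14474827. A tile had a median of 56 and 69 calls in the TKO libraries and of 95 and 131 in the WT libraries. The mean absolute gap between the replicates of a tile was 4.82 percentage points in TKO and 3.04 in WT. Mitochondrial cytosines, which give the level of incomplete conversion and miscalls, were read as methylated in 0.177 to 0.396% of calls. No RNA of the TET lines was used here, so neither the deletion nor the ESC identity of these libraries was checked against gene expression. The labels do not say whether the replicates of a line came from separate cultures. The spread between them may therefore be technical, and no p-value reaches beyond these libraries. The p-value of a tile rests on its call counts and on 1 dispersion shared by all tiles (1.32). It does not measure the spread between the replicates of that tile.

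Methylation was higher in TET TKO than in TET WT cells at 48 h. Over 413825 autosomal CpG positions with at least 5 calls in each library, the mean level was 12.3% and 12.3% in the WT libraries and 16.1% and 16.1% in the TKO libraries. The TKO mean exceeded the WT mean by 3.78 points, a ratio of 1.31, while the SD between replicates was 0.0282 points in WT and 0.0147 in TKO (n = 2 each). An exact two-sided permutation test gave p = 0.333, the smallest value that 2 against 2 libraries allow. At tiles, 5800 of 46259 were higher in TKO, 12.5% of those tested, and 74 were lower, 0.16%. A tile was called at an adjusted p below 0.05 (quasi-likelihood test with limma's moderated dispersion) and a difference of at least 20 points. Among the called tiles 98.7% were higher in TKO. Both TKO libraries lay above both WT libraries in 19955 tiles (43.1%) and below both in 2536 (5.48%). Of the called tiles, 5774 higher and 72 lower ones had groups that did not overlap. With the adjusted p alone, 10291 tiles were higher (22.2%) and 219 lower (0.473%). By limma on M values the counts over the same tiles were smaller (1478 higher, 7 lower). With at least 50 calls 1021 tiles were higher and 5 lower. That minimum leaves fewer tiles to test, so these 2 counts are not shares of 46259. With a dispersion estimated from each tile alone no tile was called, and 7079 were higher and 367 lower at an unadjusted p below 0.05.

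The difference was spread unevenly over the tiles. The median tile differed by 1.09 points and the mean tile by 6.78, with the 5th percentile at -2.56 and the 95th at 34.0. Of the higher tiles, 2676 differed by 20 to 30 points, 2584 by 30 to 50 and 540 by 50 or more. At the threshold, 279 called tiles had a difference of 20 to 21 points and 250 tiles had one of 19 to 20. The pooled level of the higher tiles had a median of 25.4% in WT and 64.6% in TKO. That of the lower tiles was 81.5% in WT and 54.2% in TKO, and 59 of the 74 stood at 60% or more in WT. Tiles below 10% made up 65.1% and 65.2% of all tiles in the WT libraries and 57.3% and 57.2% in the TKO libraries. Tiles at 80% or more made up 6.45% and 6.18% in WT and 12.2% and 12.0% in TKO. The share of tiles at either end of the scale thus differed between the lines by more than it did between replicates.

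**Figure D1:**
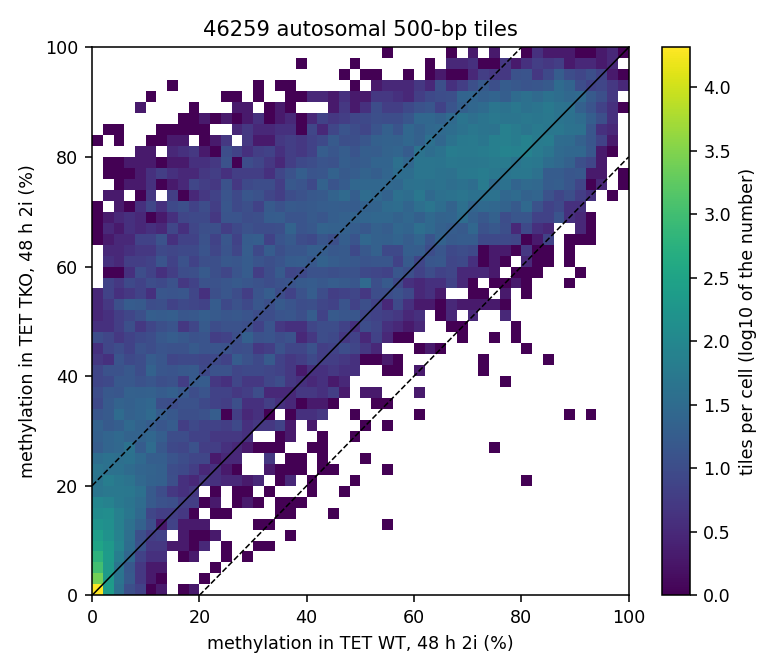
Pooled methylation of 46259 tiles at 48 h of 2i in TET WT (x axis, %) and TET TKO (y axis, %), with colour giving the log10 number of tiles per cell, a solid line of equality and dashed lines 20 points to each side. Most tiles sit at the lower left corner, and above the line of equality tiles reach 80% in TKO from any level in WT, while few lie below the lower dashed line.

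How often a tile was called went with its level in serum, before 2i. This level comes from the TET WT serum libraries, which did not enter the 48 h contrast. Of 27298 tiles under 5% in serum, 1.02% were higher in TKO at 48 h. The share was 40.8% of 3987 tiles at 5 to 20%, 61.1% of 2784 tiles at 20 to 40% and 42.3% of 3421 tiles at 40 to 60%. It was 12.8% of 5203 tiles at 60 to 80% and 0.876% of 3312 tiles at 80% or more. Partly methylated tiles therefore held most of the calls, and in the class of 20 to 40% the mean level at 48 h was 27.1% and 27.0% in the WT libraries against 53.8% and 53.8% in TKO. Lower tiles were most frequent where serum levels were highest, with 1.09% of the tiles at 80% or more and none of those under 20%. A call needs 20 points, so tiles near 0 have little room to be called lower and tiles near 100% little room to be called higher, and both ends of this pattern follow in part from the threshold. When the classes were taken from serum libraries of E14, another wild-type ESC line, the shares of higher tiles from the lowest to the highest class were 0.255, 15.2, 52.1, 53.3, 39.8 and 9.57%.

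Higher tiles also had fewer CpG sites listed in the 4 libraries. Only listed sites were counted, so this is not the CpG content of a tile. The median was 7 sites in higher tiles, against 12 over all tiles, and 6 in lower tiles. The strands of a CpG counted as 1 site, and since no genome of the build was used, listed positions that touch were taken in pairs. Tiles with 1 to 5 sites were higher in 22.9% of cases and tiles with 6 to 10 sites in 22.5%. The share was 8.86% at 11 to 20 sites, 0.841% at 21 to 30 and 0.0772% at 31 to 40, and no tile with 41 or more sites was called higher. Tiles with many listed sites were mostly unmethylated, as CpG islands are. Within tiles that had 20% or more in E14 serum the order was different, with 25.2% higher at 1 to 5 sites, 32.8% at 6 to 10 and 41.1% at 11 to 20, then 30.4% of 112 tiles at 21 to 30, 9.09% of 11 tiles at 31 to 40 and 0 of 4 tiles at 41 or more. Between chromosomes the share of higher tiles ran from 9.85% on chromosome 6 to 15.5% on chromosome 5.

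**Figure D2:**
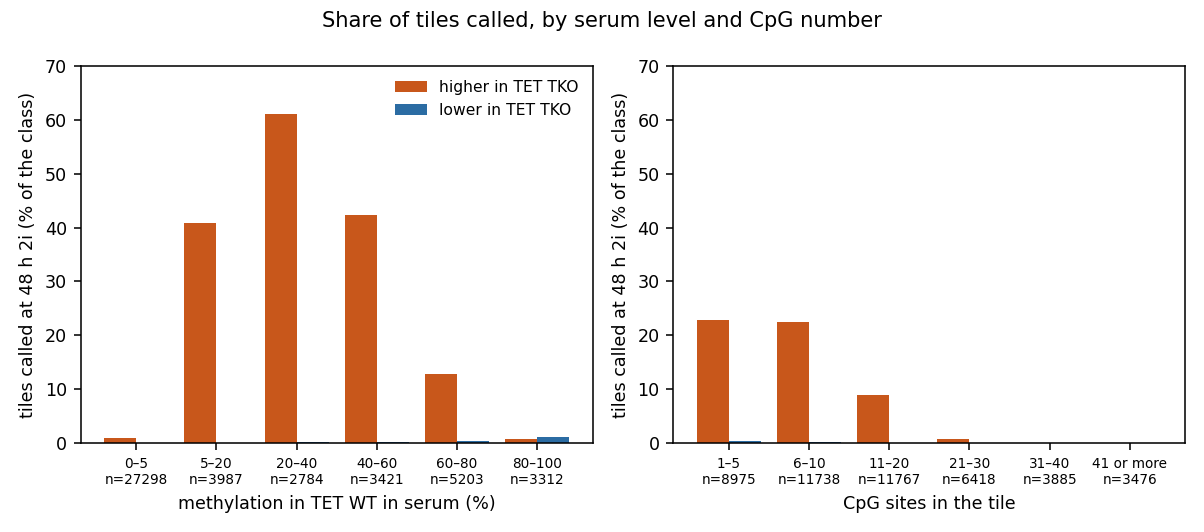
Share of tiles called higher (orange) or lower (blue) in TET TKO at 48 h of 2i, in percent of the class, by the methylation level in TET WT serum (left) and by the number of CpG sites in the tile (right), with the number of tiles under each class. The share of higher tiles peaks at 61.1% for tiles of 20 to 40% in serum. It falls from 22.9% to 0 as the listed CpG sites increase.

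The 10 named tiles with the largest differences read 0 to 16.2% in the WT libraries and 58.5 to 100% in the TKO libraries. Coordinates of tiles are those of build NCBIM37. No gene annotation of that build was used here, and genes are given only where a RefSeq promoter could be placed on the deposited positions. The largest difference among tiles with at least 40 calls and 5 positions per library was at chr1:140738001-140738500. Its WT libraries read 0.855% and 0%, the latter from 427 calls and allowing up to 0.703%, and its TKO libraries read 75.7% and 89.7%, a difference of 83.6 points (adjusted p = 1.18e-124, limma's moderated dispersion). The adjusted p was 0.0398 by limma on M values and 0.229 with a dispersion of the tile's own. All 18 CpGs of the tile with at least 5 calls were higher in TKO, with 0 to 2.56% in WT and 40 to 100% in TKO. In serum the tile already read 82.6% and 86.4% in TKO against 0.269% and 0% in WT. At chr16:91830501-91831000 the WT libraries read 3.40% and 3.87% and the TKO libraries 79.6% and 77.2%, and all 13 CpGs with at least 5 calls were higher in TKO. The tile chr9:20189501-20190000 read 0.498% and 0% in WT against 66.9% and 69.7% in TKO, with 17 of 17 CpGs higher, and it overlaps the Zfp560 promoter as placed here. At chr14:90298501-90299000 the levels were 12.2% and 11.8% in WT and 100% and 85.7% in TKO. Groups that did not overlap and large differences were conditions for naming tiles, here and for the lower tiles below. The levels and CpG counts of the named tiles are therefore a description.

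The other 6 of the 10 named higher tiles differed by 67.3 to 72.5 points. They lay at chr11:97928501-97929000, chr19:14501001-14501500, chr19:38458001-38458500, chr7:6930001-6930500, chr13:114453501-114454000 and chr5:122498001-122498500. Among them chr19:14501001-14501500 had the widest spread between TKO replicates, with 58.5% and 90.7% against 1.49% and 7.53% in WT. In chr7:6930001-6930500, 7 of 8 CpGs were higher in TKO, and in the other 5 tiles every CpG with at least 5 calls was.

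Lower tiles stood singly and mostly at high methylation in WT. The largest difference within the same limits was at chr3:129364501-129365000, where the WT libraries read 87.8% and 91.0% and the TKO libraries 39.0% and 28.9%, a difference of -56.2 points (adjusted p = 3.05e-15, limma's moderated dispersion). All 5 of its CpGs with at least 5 calls were lower in TKO. The tile read 42.7% and 36.8% in TKO in serum, against 77.0% and 91.8% in WT, so the difference was present before 2i. E14 at 48 h read 92.2% and 89.0% there. The other 4 named lower tiles, at chr15:65569501-65570000, chr8:69559501-69560000, chr19:53772501-53773000 and chr13:55423501-55424000, differed by -31.9, -28.4, -25.7 and -25.6 points. By limma on M values these 4 lost their call, with adjusted p from 0.0749 to 0.132. The tile on chromosome 19 differed by -19 points with thinned calls, and that on chromosome 13 by -14.0 points as a mean of percentages. At chr13:55423501-55424000 the WT libraries read 50.0% and 51.3% and the TKO libraries 25.4% and 25%, and this tile overlaps the promoter of Rab24, which encodes a small GTPase. The wild-type control line of the UHRF1 experiment read 2.86% and 0% there at 48 h.

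Some higher tiles stood side by side. A total of 637 of the 5800 (10.98%) were in 304 runs of at least 2 neighbouring higher tiles, and no 2 lower tiles were neighbours. Where the next tile was also tested, it was higher for 272 of 682 higher tiles (39.9%), against 4.13% of 15513 tiles in all. The 15513 tiles were not matched to the higher tiles in level, and of all tiles tested 12.5% were higher. In the classes from 5 to 60% in TET WT serum the share was 40.8 to 61.1%. Neighbouring tiles can share reads. The longest runs had 4 tiles. On chr4:141033501-141035500 the tiles differed by 50.2, 56.1, 32.4 and 34.9 points. On chr5:24096501-24098500 the differences were 47.6, 41.8, 30.03 and 46.1 points, and on chr12:92885501-92887500 they were 41.5, 43.0, 53.7 and 60.9. Within the run on chromosome 12 the tile from 92886501 was lowest in WT, with 0.658% and 4.26% against 64.8% and 50.0% in TKO.

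Among tiles at 60% or more in all 4 libraries that were not called, the 3 with the most calls are described here. Their lack of a call was a condition of the choice and not an outcome. The tile with the most calls was chr2:98502501-98503000, with 2033 to 3724 calls per library, and it read 64.1% and 64.7% in WT and 60.8% and 62.2% in TKO. At chr13:50116501-50117000 the levels were 77.1% and 76.9% in WT and 75.5% and 72.0% in TKO, a difference of -3.14 points. At chr13:120277001-120277500 they were 63.0% and 61.8% in WT and 69.6% and 70.6% in TKO. That difference of 7.78 points had an adjusted p of 1.52e-08 (limma's moderated dispersion) and was under the minimum of 20 points. By limma on M values its adjusted p was 0.588. When positions with more than 200 calls were left out, the difference at chr2:98502501-98503000 turned from -2.85 to 34.2 points.

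Promoters were measured through the CpG positions of the RefSeq sequences, each matched to the deposited positions by the spacing of its CpGs. Of 31396 promoters of 300 bases, 8278 could be placed, and 6578 genes had at least 20 calls in each library. Most of these were unmethylated in both lines, with 6010 (91.4%) under 5% in all 4 libraries. In TKO 64 promoters were higher, 0.973% of those tested, and none was lower (0 at 20 points, 67 at an unadjusted p below 0.05 and 0 by limma on M values). Of the 64, 41 belong to named genes on autosomes other than chromosome 18. The other 23 belong to gene models, clones or genes of chromosome 18. By limma on M values 8 promoters were higher. In 29 promoters both WT libraries were below 10% and both TKO libraries above 20%. Among tiles, 102 of the 8775 that overlap a placed promoter were higher (1.16%), against 5698 of the other 37484 (15.2%). These 2 sets were not matched in level, and promoters that could not be placed fall among the other tiles. Of all tiles under 5% in TET WT serum, 1.02% were higher, so the lower share does not set promoters apart. A promoter that another gene shares on the opposite strand cannot be assigned to 1 of them. The genes named below were chosen after their values were seen.

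The promoters of 2 zinc finger genes were free of methylation calls in WT. Zfp560 read 0% in both WT libraries, from 167 and 245 calls, which allow up to 1.80% and 1.22%. In TKO it read 66.7% and 69.8%, a difference of 68.1 points, and each of its 13 CpGs with at least 5 calls was higher, at 37.5 to 100%. Those in the sequence printed above are the 9 in capitals, and the other 4 lie after the start. Zfp263 also read 0% in both WT libraries, from 227 and 304 calls, which allow up to 1.32% and 0.987%. Its TKO libraries read 36.0% and 33.1%, with 11 of 12 CpGs higher. Both promoters stood at 0 to 2.35% in E14 at 48 h. In the UHRF1 wild-type line Zfp560 read 11.6% and 15.1% and Zfp263 read 0% in both libraries. The 2 promoters were methylated in TKO in serum as well, at 55.2% and 71.8% for Zfp560 and 50.9% and 68.7% for Zfp263.

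Germ line genes are a class whose promoters DNA methylation keeps silent in somatic cells. Of 14 such genes, 6 had a measured promoter and 4 of these were higher in TKO, beside 0.973% of all promoters. Of all promoters, 91.4% were under 5% in all 4 libraries, which none of these 6 was. Hormad1 read 24.1% and 21.2% in WT and 53.7% and 47.7% in TKO, with 16 of 16 CpGs higher. At Mael the levels were 12.7% and 11.8% in WT and 37.5% and 37.2% in TKO, with 10 of 13 CpGs higher. Sycp1 stood at 43.3% and 44.9% in WT and 69.9% and 73.3% in TKO. All 6 of its CpGs with at least 5 calls in each line were higher, and CpGs with fewer calls also enter its percentages. At Slc25a31 the levels were 34.7% and 21.4% in WT and 44.1% and 58.0% in TKO, a difference of 24.0 points with the highest adjusted p of the 4 (adjusted p = 0.00643, limma's moderated dispersion). Its difference was not seen at 96 h, with 27.6% and 21.4% in WT and 22.0% and 22.2% in TKO. At Hormad1, Mael and Sycp1 both TKO libraries were above both WT libraries at 96 h. At 48 h the groups did not overlap in any of these 4 genes. This is usual after a call, since 5774 of the 5800 higher tiles did not overlap either. In all tiles, both TKO libraries lay above both WT libraries in 43.1%, and the share over all promoters was not counted. The UHRF1 wild-type line at 48 h was as high as TET TKO or higher at all 4, with 70.4% and 72.2% at Hormad1, 50.5% and 43.6% at Mael, 85.0% and 94.6% at Sycp1 and 70.7% and 73.6% at Slc25a31. E14 at 48 h read 39.9% and 35.6%, 17.2% and 15.9%, 62.3% and 69.6%, and 40.4% and 30.8% at these genes. The E14 libraries were below both TKO libraries at each gene, so only the UHRF1 wild-type line reached the TKO levels. Ddx4 was not called, with 6.46% and 9.02% in WT and 7.28% and 12.0% in TKO, and 13 of its 23 CpGs were higher. Tex101, a sperm surface glycoprotein gene, was high in both lines, at 78.7% and 71.0% in WT and 78.9% and 69.7% in TKO.

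Other genes among the 64 belong to no list used here and were picked for their values, so they say nothing of a class of genes. Gpat2, a mitochondrial acyltransferase of the testis, read 28.9% and 18.1% in WT and 81.0% and 69.9% in TKO. For Spag8, a sperm-associated antigen, the levels were 9.73% and 13.1% against 63.3% and 59.8%. Rpl39l, the testis copy of a ribosomal protein gene, read 32.8% and 37.5% against 84.9% and 82.8%. The axonemal dynein genes Dnah6 and Dnah1 differed by 37.9 and 28.0 points from WT levels of at most 2.22%, and the meiotic axis gene Hormad2 by 20.7 points. Cxcl10, an interferon-induced chemokine, read 10.9% and 20.2% in WT and 76.5% and 83.9% in TKO. The lipase gene Pnliprp2 differed by 54.7 points, the sterol transporter gene Abcg8 by 50.6, the protease gene Tmprss2 by 45.5, the segmentation clock gene Hes7 by 25.4 and the skeletal muscle actin gene Acta1 by 25.2. Pttg1, which encodes securin, stood at 2.07% and 0.80% in WT and at 32.3% and 34.7% in TKO.

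None of 7 measured promoters of pluripotency state and imprinted genes was called, beside 0.973% of all promoters, so these few say nothing about either group. Of 14 naive or primed state genes 4 were measured. Those of the transcription factor genes Tfcp2l1 and Klf4, the de novo methyltransferase gene Dnmt3b and the primed state gene Fgf5 read 0 to 3.41% in every library. Of 14 imprinted genes 3 were measured. Gnas and Grb10 read 0 to 1.60%, and Plagl1 read 4.69% and 3.85% in WT and 7.04% and 12.0% in TKO. E14 read 86.2% and 85.0% at the Plagl1 promoter at 48 h, so this promoter differed between wild-type lines by far more than between TET WT and TET TKO.

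**Figure D3:**
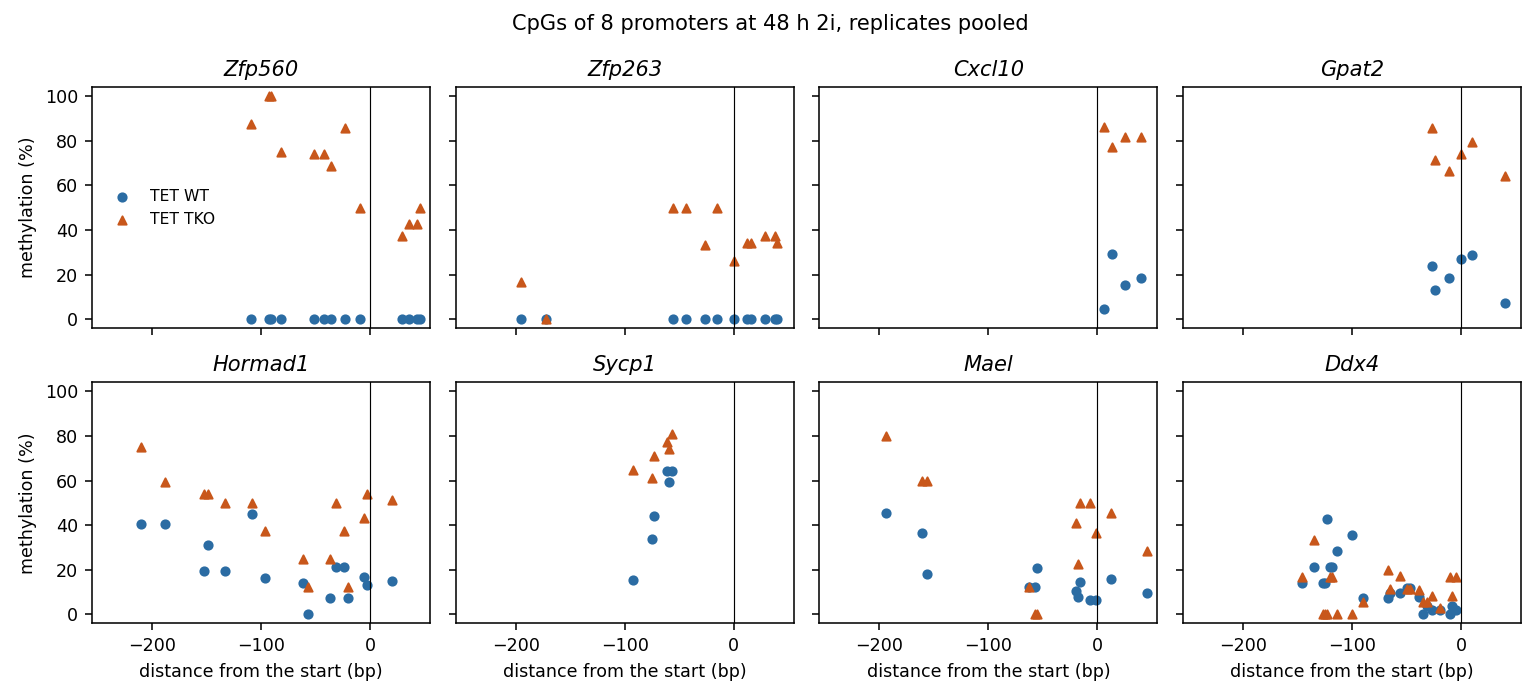
Methylation (%) of single CpGs in 8 promoters at 48 h of 2i against their distance from the RefSeq start (bp), with replicates pooled, in TET WT (blue circles) and TET TKO (orange triangles). In Zfp560 all 13 CpGs are at 0 in WT and at 37.5% or more in TKO, while in Ddx4 the 2 lines overlap.

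The sequence CACGTG, the E-box recognised by basic helix-loop-helix factors, and TCCCGC, the core of the E2F6 site, are known from promoters of germ line genes. On either strand of the 300-base window CACGTG was found in 6 of the 64 higher promoters (9.38%), in 11.02% of the 6578 measured promoters and in 7.14% of all promoters. TCCCGC was found in 23 of the 64 (35.9%), in 46.7% of those measured and in 20.2% of all. The motifs can share 1 base at an end. The 4 higher germ line promoters held both motifs, and so did Ddx4, which was not called. Tex101 held neither. In the printed sequences the CACGTG of Hormad1 is among the measured CpGs and that of Mael is not.

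The promoters that were higher in TKO belonged more often to genes at low expression in wild-type ESCs. RNA-seq values of E14 in serum, log2 read counts that the authors corrected for gene length and library depth, were available for 38 of the 64 genes. Their median was -1.31, and 23 (60.5%) were below 0. For 5315 genes whose promoter was not called the median was 2.34 and 23.3% were below 0. The 2 sets were not matched in methylation level, and 91.4% of all measured promoters were under 5% in all 4 libraries. The medians at 72 h of 2i were -1.71 for the higher promoters and 2.33 for those not called. Some genes with higher promoters were well expressed in E14 serum, such as Pttg1 at 4.55 and Rpl39l at 4.10 on this scale. These RNA values are from another line, and the expression of the genes in TET TKO cells was not tested.

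Most of the 48 h difference was there in serum. Over 39358 tiles covered in all 15 RRBS libraries of the TET lines, 4348 of the higher tiles could be followed. In a fit of all 15 libraries, 10.7% of tiles were higher and 0.102% lower at 48 h. By that fit 3628 of them (83.4%) were also higher in TKO in serum, where 14.4% of all tiles were. They made up 64.1% of the 5658 serum calls. At 96 h 2790 (64.2%) were higher, against 9.6% of all tiles, and they made up 73.8% of the calls at that time. At 168 h, where TET WT is a single library assumed to vary like the others, 2798 (64.4%) were higher, against 12.7% of all tiles, and they made up 55.9% of the calls. A total of 2107 tiles (48.5%) were called at all 4 times, and 390 (8.97%) were called at no other time. Most of the latter differed in the same direction elsewhere without a call, since 4344 of the 4348 tiles were higher in TKO in serum by sign, 4313 at 96 h and 4335 at 168 h. Of 44 lower tiles, 15 (34.1%) were lower in serum, where 0.0686% of all tiles were, 13 (29.5%) at 96 h against 0.264% and 10 (22.7%) at 168 h against 0.18%. None of the tiles followed was called in the opposite direction at another time.

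Both lines lost methylation in the higher tiles over the course of 2i. The mean level of the 4348 tiles in WT was 32.1% and 32.2% in serum, 27.6% and 27.4% at 48 h, 17.3% and 17.4% after 96 h and 8.46% after 168 h. In TKO it was 64.6% and 64.6% in serum, 60.6% and 60.5% at 48 h, 43.6% and 42.5% after 96 h and 33.9% and 33.3% after 168 h. The TKO libraries thus held more methylation at 168 h than the WT libraries did in serum. In the 44 lower tiles the WT libraries stood at 68.3% and 70.3% in serum and 70.3% and 71.5% at 48 h, whereas the TKO libraries had 56.9% and 55.6% in serum and 42.2% and 44.9% at 48 h. As the tiles were chosen by their 48 h difference, these levels are a description.

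**Figure D4:**
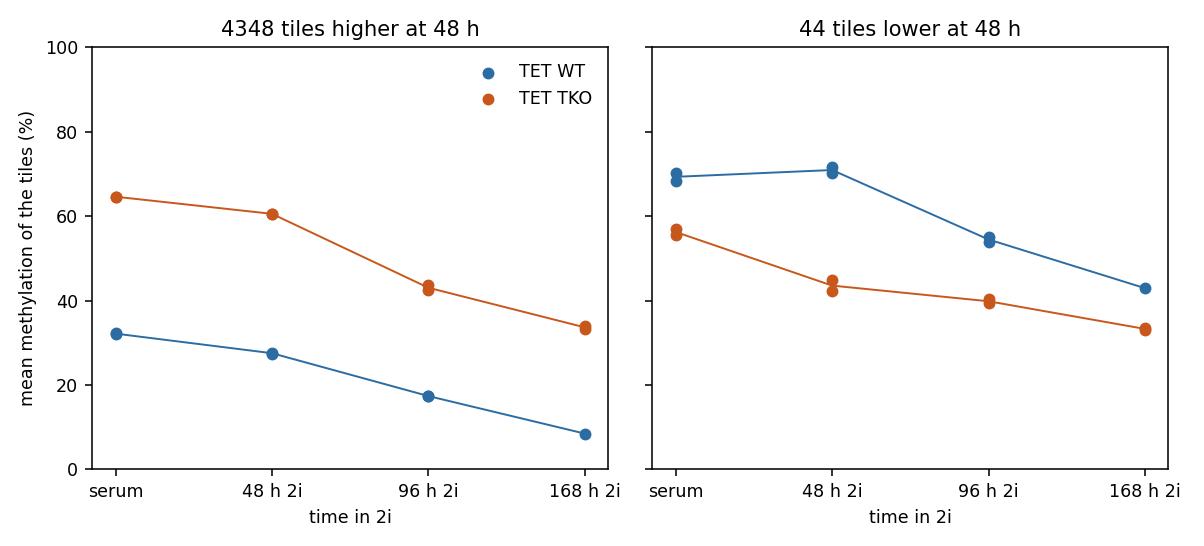
Mean methylation (%) of the 4348 tiles that were higher (left) and the 44 that were lower (right) in TET TKO at 48 h, in serum and at 48, 96 and 168 h of 2i, with a point for each library and lines through the means of TET WT (blue) and TET TKO (orange). Both lines fall in the higher tiles and stay apart, with WT libraries at 32.1% and 32.2% and TKO libraries at 64.6% in serum, and with 8.46% in WT and 33.9% and 33.3% in TKO at 168 h.

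The change from serum to 48 h was called different between the lines at few tiles. Over 350943 positions the WT libraries kept 94.3% and 93.9% of the mean serum level of their line and the TKO libraries kept 89.4% and 89.4%. In percentage points the mean fell by 0.747 in WT and fell by 1.84 in TKO (exact two-sided permutation test of the kept share, p = 0.333, the smallest value possible). Over these positions the TKO line lost the larger share, and the 2 groups do not overlap. In the 5497 higher tiles also measured in serum the sizes ran the other way on average. The mean went from 32.9% to 27.9% in WT (-5.04 points) and from 65.4% to 61.4% in TKO (-3.98 points). This is a description, since these tiles were chosen at 48 h. Under 20% in TET WT serum the changes in WT and TKO were -2.16 and -2.27 points, and at 20 to 40% they were -4.73 and -4.88. At 40 to 60% they were -6.71 and -5.36, and at 60% or more -10.5 and -3.65. Mitochondrial calls read as methylated were 0.649% and 0.586% in the TKO serum libraries and 0.113% and 0.375% in the WT serum libraries, and their part in this result was not tested. In a test of the genotype by medium interaction over 44744 tiles, 4 tiles (0.00894%) changed more upward and 35 (0.0782%) more downward in TKO. With the adjusted p alone the numbers were 17 and 40, and with an unadjusted p below 0.05 they were 1286 and 3017. In the 4 tiles the mean fell from 26.3% to 6.29% in WT and went from 54.5% to 56.9% in TKO, and all 4 were higher in TKO at 48 h. In the 35 tiles the mean went from 58.8% to 66.0% in WT and from 88.3% to 66.4% in TKO, so that the lines met at 48 h. The 4 and the 35 tiles were chosen by their difference in change, so these levels are a description. Among 5497 higher tiles covered in both media, the serum difference was at least 20 points in 4542 (82.6%) and under 10 in 152 (2.77%). Both interaction counts were small and changed with the settings of the test. With calls thinned to the shallowest library they were 0 and 2 (909 and 1989 at an unadjusted p below 0.05). In calls simulated at these depths the test found 12 of 50 tiles changed by 25 points and 24 of 50 changed by 40. It found 4 of 48 tiles changed by -25 points and 22 of 52 changed by -40. A small count therefore does not show that the lines changed alike.

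The 2 wild-type lines of the other experiments did not side with TET WT throughout. Both have the background strain E14. The 5576 higher tiles covered in these libraries too had a mean of 28.1% and 27.9% in TET WT, 61.5% and 61.5% in TET TKO, 41.5% and 41.8% in E14 at 48 h and 63.1% and 63.5% in the UHRF1 wild-type line at 48 h. At the level of single tiles, the UHRF1 wild-type line was nearer to TET TKO than to TET WT in 5107 (91.6%) and E14 in 2115 (37.9%). Over all 45189 tiles these shares were 58.0% and 46.0%. The UHRF1 wild-type line also had the highest mean over all tiles, 29.1% and 29.2%, against 26.2% and 26.3% in TET TKO, 23.4% and 23.5% in E14 and 19.6% and 19.5% in TET WT. In 66 lower tiles it stood at 74.0% and 74.2%, close to the 73.8% and 75.4% of TET WT and above the 46.4% and 50.3% of TET TKO. In the higher promoters the order was another, with TET TKO above the UHRF1 wild-type line: the mean levels were 14.99% in TET WT, 22.3% in E14, 39.5% in the UHRF1 wild-type line and 47.9% in TET TKO. What part of the difference between TET TKO and TET WT belongs to the strain or the culture of a line was not tested.

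**Figure D5:**
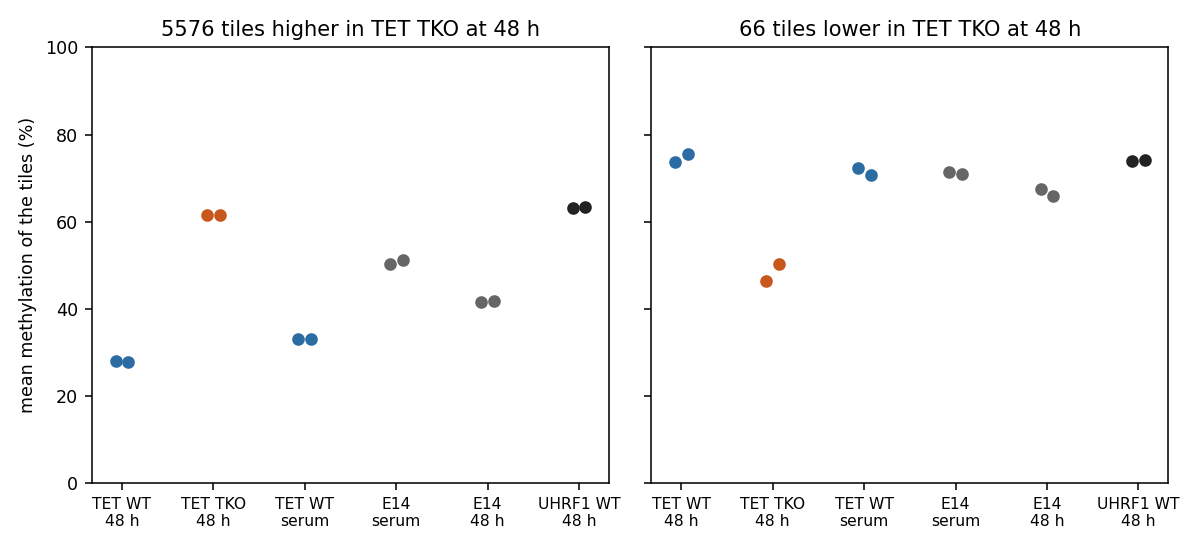
Mean methylation (%) of tiles that were higher (left, 5576 tiles) or lower (right, 66 tiles) in TET TKO at 48 h, with a point for each library of TET WT, TET TKO, E14 and the UHRF1 wild-type line. In the higher tiles the UHRF1 wild-type line, at 63.1% and 63.5%, is level with TET TKO, and in the lower tiles it is level with TET WT.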

How the data were processed

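RRBS was analysed from 4 libraries at 48 h of 2i, 2 of TET WT and 2 of TET TKO, grouped by their labels. Libraries of the same lines in serum and at 96 and 168 h of 2i, and RRBS libraries of E14 and the UHRF1 wild-type line, were used for comparison. The authors trimmed reads with Trim Galore 0.3.5 and aligned them with Bismark 0.12.3 to NCBIM37, and deposited for each cytosine the percent methylated beside its methylated and unmethylated call counts. Calls on the same read are not independent. The deposited E14 RNA-seq values are log2 read counts that the authors corrected for gene length and depth, from reads aligned with TopHat2 2.0.11. All columns of these files mapped to labelled samples.

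Counts were summed over autosomal 500-bp tiles with at least 20 calls and 3 positions in each library compared. Each tile was fitted with a quasi-binomial logistic model, its dispersion was moderated with squeezeVar of limma 3.58.1 in R 4.3.3, and the quasi-likelihood F test was adjusted by Benjamini-Hochberg over all tiles. The moderation gave 1 dispersion for all tiles, 1.32 for the 4 libraries. Tiles were called at an adjusted p below 0.05 and at least 20 points. The models were tested on simulated data. Other steps used Python 3.11.15, numpy 2.4.6, scipy 1.17.1 and pandas 2.3.3.

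RefSeq promoters (GRCm38.p6, 250 bases before to 50 after each start) were placed on NCBIM37 by the spacing of their CpGs, with at least 10 matched cytosines, a lead of at least 5 over the next place and no listed cytosine off a CpG, and no coordinates were converted. Of neighbouring placed promoters, 97.5% had the same spacing and 99.8% the same order in both builds. This step and the promoters named were chosen after the files were seen. The members, gene lists and tests were chosen with earlier results of these data known. Where a share is 0, the upper limit given is that of 3 calls, which covers counting error only.

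Tiles were named by rule among called tiles of autosomes other than chromosome 18, at most 1 per 100 kb. Limits were at least 40 calls and 5 positions in each library and groups that do not overlap. The 10 highest and 5 lowest differences were named. For each direction of the interaction 3 tiles were named (5 were sought for the upward one, and 3 met the limits). The 3 longest runs were added. So were the 3 tiles with the most calls among those not called and at 60% or more in all 4 libraries. Alternatives were other minimums of calls, positions and difference, thinned calls, limma on M values, unmoderated or trended dispersions, all 15 TET libraries, a replicate block and leaving out each library.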

Additional observations from a re-analysis of the deposited data

Results flagged for a closer look

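The change from serum to 48 h of 2i differed between TET TKO and TET WT in 4 tiles that moved more upward in TKO and in 35 that moved more downward, by the test of the interaction itself (quasi-likelihood test with limma's moderated dispersion, adjusted p below 0.05 and at least 20 points). The mean level of the 35 tiles went from 88.3% to 66.4% in TKO and from 58.8% to 66.0% in WT. TKO fell in 35 of the 35 and WT rose in 33. The tiles were chosen by this difference in change, so these directions are a description.

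Among tiles that moved more upward, chr2:73161001-73161500 read 36.8% and 33.8% in WT in serum and 13.3% and 8.16% at 48 h, and in TKO it read 66.2% and 74.6% in serum and 79.5% and 67.9% at 48 h, a difference in change of 28.6 points. At chr11:103632001-103632500 WT went from 21.1% and 10.0% to 1.19% and 1.96% and TKO from 31.6% and 40.9% to 43.8% and 41.7%, a difference of 22.0 points. At chr12:8919501-8920000 WT went from 17.8% and 18.3% to 2.26% and 3.27% and TKO from 44.1% and 57.4% to 51.2% and 57.3%, a difference of 21.2 points. In these 3 tiles WT lost most of its serum level, while the TKO libraries of the 2 media overlapped in chr2:73161001-73161500 and chr12:8919501-8920000.

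Among tiles that moved more downward, chr1:133884001-133884500 went from 88.3% and 90.5% to 66.7% and 60.4% in TKO and from 50.0% and 58.2% to 67.1% and 62.1% in WT, a difference of -36.7 points. At chr17:48032501-48033000 TKO went from 94.4% and 93.1% to 64.7% and 65.2% and WT from 77.3% and 67.4% to 80.5% and 78.4%, a difference of -35.8 points. At chr16:91036501-91037000 TKO went from 87.0% and 92.5% to 72.1% and 59.2% and WT from 63.1% and 60.2% to 80.4% and 66.2%, a difference of -33.9 points. E14 stood at 71.3 to 91.8% in these 3 tiles at 48 h. The 6 tiles lost their call when calls were thinned to the shallowest library, with adjusted p from 0.0538 to 0.207, and by limma on M values, with adjusted p from 0.594 to 0.611. Each of the 6 also lost it without TET TKO serum replicate 1, with adjusted p from 0.0613 to 0.273, and each of the other 7 libraries, when left out, ended the call of 1 to 3 of them. Without TET WT serum replicate 1 the difference at chr11:103632001-103632500 was 14.5 points (adjusted p = 0.399, limma's moderated dispersion), and without TET TKO serum replicate 1 that at chr12:8919501-8920000 was 13.3 points (adjusted p = 0.0872, limma's moderated dispersion). No group had 4 or more libraries, so single libraries were not tested as outliers.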

How the results depend on the processing

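The mean difference over positions stayed positive under every alternative run, at 2.44 to 6.78 points and 3.76 to 4.14 with 1 library left out. The kept share in TKO stayed below that in WT, by -2.86 to -5.51 points and by -4.54 to -4.85 with 1 library left out. The counts of tiles followed the minimum of calls and the size of the difference asked for. Higher, lower and median were 9420, 159 and 2.27 points with 10 calls and 1021, 5 and 0.359 with 50 calls. Higher tiles numbered 4226 with thinned calls, 3124 with 30 points, 10291 with no minimum difference and 1478 by limma on M values. With a dispersion of its own for each tile, no tile was called in either direction, with 7079 higher and 367 lower at an unadjusted p below 0.05. Lower tiles numbered 46 with 5 positions or thinned calls, 32 without the most differing position, 7 by limma, 141, 16 and 219 with 10, 30 and no points, and 40 in the fit of 15 libraries. The median difference was 0.855 with 5 positions, 0.851 with thinned calls, 0.554 without the most differing position and 1.19 as a mean of percentages. With 1 library left out, higher tiles numbered 4667 to 6415, lower tiles 53 to 103, and the median was 1.06 to 1.52.

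Tiles that changed more upward numbered 1 with 50 calls, 2 without the most differing position, 10, 0 and 17 with 10, 30 and no points, and 0 with thinned calls (909 at an unadjusted p below 0.05), by limma (1128) and with own dispersions (832). Those more downward numbered 16 with 50 calls, 22 without that position, 13 with 30 points, 2 with thinned calls, and 0 by limma (2325) and with own dispersions (1903). With 1 library left out they numbered 1 to 10 and 6 to 48, with 16, 6, 11 and 7 more downward without TET WT serum replicate 2, TET TKO serum replicates 1 and 2 and TET WT 48 h replicate 2. For the more upward ones only leaving out TET WT 48 h replicate 1 kept the count of 4. Higher promoters, 64 in all, numbered 25 with 15 matched cytosines and a lead of 10, 29 with 50 calls, 8 by limma and 53 to 66 with 1 library left out, and lower ones 0 to 1. At chr2:98502501-98503000 the difference turned from -2.85 to 34.2 points without positions of over 200 calls, where the pile-up was removed by construction. Of 385 values of named tiles under these alternatives, 319 kept their direction and side of the threshold and 64 kept the direction and lost the call. The promoter alternatives and a dispersion trended on the level of the tile (5601 higher, 65 lower, 4 and 24 for the interaction) were chosen after seeing the data.

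Replicate numbers did not pair the libraries, since deviations of same-numbered libraries had a correlation of 0.00335 over 20539 tiles. With a replicate block 5500 tiles were higher and 63 lower, 3 changed more upward and 14 more downward, and 59 promoters were higher. The tile chr1:133884001-133884500 lost its call with the block (adjusted p = 0.0507, limma's moderated dispersion), the only named tile to do so. Depth limits tiles under 20 calls, which were not tested.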

Other observations

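Some places differed more between wild-type lines than between TET TKO and TET WT. The tile chr13:120277001-120277500, which overlaps the placed promoters of Tmem267 and 3110070M22Rik, read 63.0% and 61.8% in TET WT, 69.6% and 70.6% in TET TKO and 53.0% and 54.1% in the UHRF1 wild-type line at 48 h, but 0% and 0.272% in E14 at 48 h and 2.41% and 1.47% in E14 serum. At the Atf7ip promoter, higher in TET TKO at 39.1% and 60.2% against 15.5% and 17.5%, E14 read 54.8% and 38.1% and the UHRF1 wild-type line 9.42% and 9.50% at 48 h. The promoter of the vomeronasal receptor gene Vmn2r29 stood at 5.30% and 6.19% in TET WT, 15.1% and 34.3% in TET TKO and 41.8% and 48.2% in E14. Vomeronasal receptor genes have near-identical copies, so reads of this promoter may be shared between them.

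Single CpGs within a promoter were uneven. At Hormad1 they ran from 0 to 45.2% in TET WT and from 12.5 to 75% in TET TKO. At Mael 10 of 13 CpGs were higher in TET TKO, and at Slc25a31 16 of 17 were, over a range of 28.6 to 100% in TET TKO.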
